A study of Mus musculus with 15 samples.

Results

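Untreated mouse embryonic fibroblasts (MEFs) at day 5 (MEFD5min) were compared with the same kind of culture at day 0 (MEFD0), to describe which genes were still shifted at a time when the genes of cell division had come back towards their day 0 level. MEFs are the adherent connective tissue cells that grow out of dispersed embryos. By the labels, those used here came from wild-type BALB/c mice at 10.5 days of embryonic age. The study's introduction speaks in general of MEFs from another strain and a later embryonic age. The comparison rested on 6 of the 15 RNA-Seq samples of the study, 3 of MEFD0 and 3 of MEFD5min. All 6 were grown in DMEM with 10% FBS, and none received the differentiation mixture that other cultures of the study were given. Day 0 was the day on which the confluent cultures were induced, so MEFD5min cells had stayed in growth medium for 5 more days than MEFD0 cells. How long the MEFD0 cultures had been confluent is not stated. Whether and when the medium of the untreated cultures was changed is not stated in the sources used here. The 3 untreated day 3 samples (MEFD3min) are given as side values, and they show where day 5 differed from day 3.

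For each sample, the deposited values were raw counts of reads per gene. The total was 24030558 to 36039085 counts per untreated sample, with MEFD5min replicate 3 the shallowest. Levels are given as CPM, the counts of a gene after each scaled library is brought to the same fixed total, and folds are on the log2 scale with the standard error (SE) from 1 edgeR quasi-likelihood fit of all 15 samples. A gene was called higher or lower where its Benjamini-Hochberg adjusted p in that fit was under 0.05. The replicates carried the numbers 1, 3 and 4 in every group, and values are listed in that order. The study's methods speak in general of independent experiments, but neither they nor the labels tie these samples to separate embryos or cultures, so the p-values measure only the spread between these samples, which may be technical. With 3 against 3, an exact permutation test of a single gene cannot go below 0.1, so all p-values come from the fit across genes.

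The cultures carried the markers of their label. Of 14 fibroblast markers, all were measured at both times, among them the collagen gene Col1a2 (1454, 1670.5 and 1156 CPM in MEFD0 and 3010.4, 2288 and 2234 CPM in MEFD5min) and the mesenchymal transcription factor Prrx1 (476, 448 and 424 CPM in MEFD0 and 442, 447 and 422 CPM in MEFD5min). Prrx1 did not pass the test (log2 fold change -0.04 ± 0.08 (SE), edgeR adjusted p = 0.697), nor did Twist1 or Thy1, and S100a4, a calcium-binding protein often used as a fibroblast marker, was far lower at day 5. In all, 7 fibroblast markers were higher, 4 lower and 3 did not pass. Among 11 macrophage markers, Adgre1, C1qa, C1qb and Tyrobp had no count in either group, while Mrc1, Lyz2 and Cd68 were higher at day 5, and the summed level of the whole list went from 2.74 to 3.45 CPM in MEFD0 to 11.2 to 13.4 CPM in MEFD5min. Among 8 endothelial markers, Cldn5 had no count and Pecam1 at most 5, but Emcn, a sialomucin of vessel endothelium, rose from at most 3 counts in every MEFD0 sample to 13.3, 7.79 and 16.5 CPM, at least 141-fold higher. The endothelial sum was 1.00 to 1.54 CPM in MEFD0 and 10.0 to 18.7 CPM in MEFD5min, most of it Emcn. Of the markers of other cell types, no erythroid or skeletal muscle member passed the filter on low counts. Higher at day 5 were 1 of 4 tested neuron, 2 of 3 neural crest and glia, 1 of 2 cardiomyocyte, 1 of 5 adipocyte and 2 of 4 pericyte markers, and lower were 1 each of the neuron, endoderm and hepatocyte (of 2), trophoblast (of 1), adipocyte and pericyte markers, and none of 2 epithelial and 1 pluripotent cell markers passed. The neural crest and glia count was 1 without MEFD0 replicate 4, and the lower neuron count was 2 without MEFD5min replicate 3. Not all of these lists were at a low level. The neural crest and glia sum was 216.4 to 272.5 CPM in MEFD0 and 299.0 to 325.2 CPM in MEFD5min, most of it Nes. The pericyte sum was 103.6 to 168.4 CPM in MEFD0 and 50.74 to 80.6 CPM in MEFD5min, most of it Cspg4. The part of these lists in any result was not tested. In bulk RNA, fewer cells of a type and less RNA per cell cannot be told apart, and this holds for every level below.

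As background, fibroblasts that fill a dish stop dividing through contact inhibition and enter a reversible quiescent state, in which the genes of DNA replication and mitosis fall and those of the extracellular matrix rise. The matrix of connective tissue is built from fibrillar collagens, from small proteoglycans that space the fibrils and from elastic fibres, and it is remodelled by matrix metalloproteinases and the plasminogen activators. Fibroblasts also sense infection. Type I interferon, once bound to its receptor, activates a transcription factor complex that holds STAT2 and IRF9 and switches on antiviral effectors and, with them, the machinery that displays peptides on MHC class I. Dense cultures can in addition run short of oxygen, and the hypoxia-inducible factors then raise glycolytic enzymes and glucose transport. Sterol synthesis follows another factor, SREBP2, which raises the enzymes of the pathway when membranes are poor in cholesterol. In the mouse embryo, Igf2 and H19 are a pair of imprinted genes that share enhancers and are silenced in most tissues after birth.

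Of 15997 genes tested, 7421 (46.4%) were called between MEFD5min and MEFD0, 3915 higher (24.5%) and 3506 lower (21.9%). These shares are the background against which each gene group below is to be read. Most changes were small, and the large ones were mostly increases. At least a 2-fold change was seen in 2438 of the called genes, 1863 of them higher and 575 lower, and at least an 8-fold change in 609 higher and 58 lower genes. The 95% interval lay within 2-fold in either direction for 9801 of the 15997 genes (61.3%), and 346 genes had no interval. Over all genes, the log2 fold change had a median of 0.0002. In 9186 genes (57.4%), the CPM of the 3 MEFD5min samples did not overlap those of the 3 MEFD0 samples. A count of at most 3 in every sample of a group was taken as the floor, which covers counting error only. Of the genes called higher, 350 were at the floor in MEFD0, and of those called lower, 50 were at the floor in MEFD5min. For such genes the fold is given as a bound. The Euclidean distance between samples on log2 CPM was 140.4 on average between MEFD0 and MEFD5min, and 56.7 and 58.52 within these groups. MEFD3min was farther from MEFD0, at 170.2, and 9602 genes (60%) were called there, 5024 higher (31.4%) and 4578 lower (28.6%). Between MEFD5min and MEFD3min, 6845 genes (42.8%) were called, 3400 higher at day 5 (21.3%) and 3445 lower (21.5%).

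**Figure D1:**
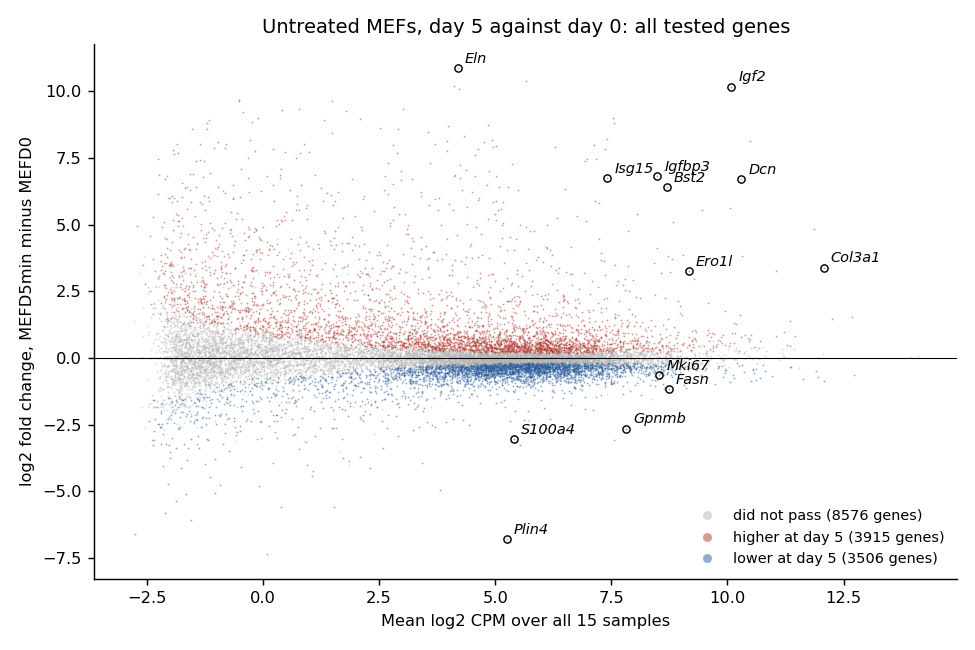
Each point is 1 of the 15997 tested genes, by its mean log2 CPM over all 15 samples (x axis) and its log2 fold change MEFD5min minus MEFD0 (y axis). Red points were called higher (3915), blue points lower (3506) and grey points did not pass. The increases reach far higher than the decreases, with Eln and Igf2 above 10 and Dcn, Igfbp3, Isg15 and Bst2 between 6 and 7 on the log2 scale.

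The genes of cell division were near, but below, their day 0 level. Of 32 S phase genes, which make up the replication licensing and nucleotide supply machinery, 31 were called lower and none higher, with a median log2 fold change of -0.50. Of 30 G2/M genes, which drive chromosome condensation and division, 23 were lower and none higher, with a median of -0.31. The same medians at day 3 were -2.11 and -2.25. Tested directly between the days, 31 S phase and all 30 G2/M genes were higher in MEFD5min than in MEFD3min. With each of the 6 libraries left out in turn, 24 to 29 S phase and 15 to 21 G2/M genes were called lower than at day 0, with the fewest G2/M genes without MEFD5min replicate 3.

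Mki67, the antigen of cycling cells, was at 821, 785 and 719 CPM in MEFD0 and 504, 487 and 494 CPM in MEFD5min (log2 fold change -0.65 ± 0.08 (SE), edgeR adjusted p = 2.82e-06). All 3 MEFD5min samples lay below all MEFD0 samples, and all lay above the MEFD3min samples, at 119.5, 123 and 133 CPM. Mcm5, a subunit of the helicase that is loaded at replication origins, was at 212, 233 and 208 CPM in MEFD0 and 127, 140.4 and 119 CPM in MEFD5min (log2 fold change -0.76 ± 0.09 (SE), edgeR adjusted p = 1.99e-06). The largest decreases in these lists were those of the licensing factor Cdt1 (-0.92), the chromatin assembly subunit Chaf1b (-0.88) and the origin factor Gins1 (-0.79), and in G2/M those of Foxm1 (-0.73), the transcription factor of the mitotic genes, and of Cdc20 (-0.73), an activator of the anaphase-promoting complex. Other members did not pass, and their 95% intervals bounded the difference closely. The mitotic kinase gene Cdk1 had a log2 fold change with an interval of -0.35 to 0.19, Aurka of -0.28 to 0.12, Cenpa of -0.28 to 0.08 and the uracil glycosylase gene Ung of -0.49 to 0.21. In all, 29 of the 32 S phase and all 30 G2/M intervals lay within 2-fold of day 0. Gins2 and Fen1 share most of their exon bases with genes on the opposite strand. The labels and the study's methods name different library kits, of which the second marks strand, and the strand setting of the counting is not given in the sources used here.

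**Figure D2:**
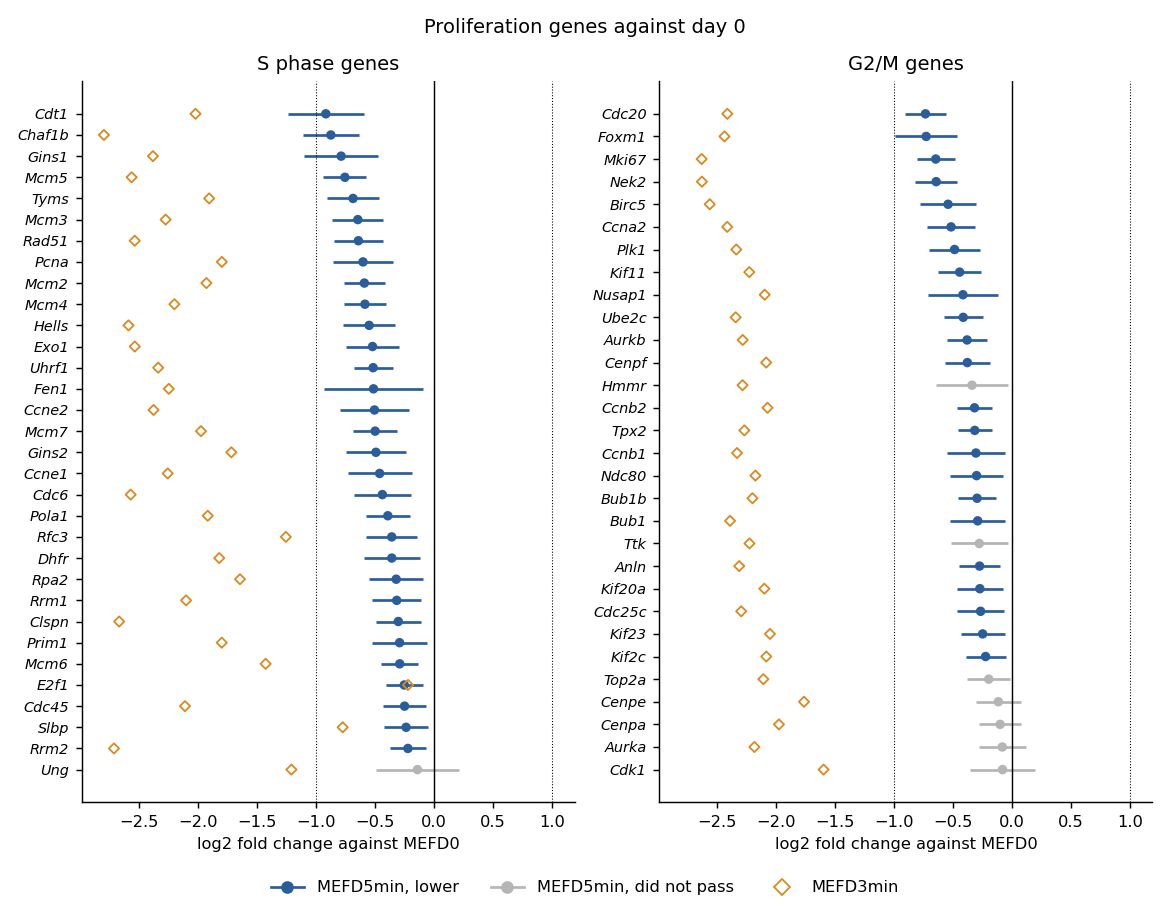
Log2 fold changes against MEFD0 (x axis) of the 32 S phase genes (left) and 30 G2/M genes (right), with filled points and 95% intervals for MEFD5min, blue where called lower and grey where not, open diamonds for MEFD3min and dotted lines at 2-fold. At day 5 most genes sit slightly to the left of 0, while the day 3 values lie farther left, with medians of -2.11 and -2.25.

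Promoters of S phase genes are known for sites of the E2F factors, which the retinoblastoma protein holds back in resting cells, and Mcm5 is shown as an example. The windows came from RefSeq (GRCm38.p6) and ran from 250 bases before to 50 bases after a start site. TTTGGCGC or TTTCCCGC was present on either strand in 9 of 28 promoters of 25 S phase genes (32.1%) and in 1.56% of all promoters, and in none of the 24 G2/M promoters, of which 19 held CCAAT (79.2%). For Mcm5 (plus strand, chr8:75109309-75109508), the match began 149 bases before the start and is in capitals in the 200 bases before it, printed 5′ to 3′ along the gene. A match describes the letters in this window only.
Mcm5: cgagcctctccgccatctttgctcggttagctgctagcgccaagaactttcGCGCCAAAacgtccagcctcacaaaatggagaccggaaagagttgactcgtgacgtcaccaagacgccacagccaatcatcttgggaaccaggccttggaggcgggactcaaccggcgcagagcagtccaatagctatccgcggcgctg

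Some genes that brake the cell cycle were higher, but the list they belong to moved in both directions. Among 14 D cyclins, CDK inhibitors and pocket protein genes, 5 were higher, 3 lower and 6 did not pass, with a median of -0.08. The share called was near the 46.4% of all genes. Cdkn1b, which encodes the inhibitor p27, was at 104, 95.9 and 102 CPM in MEFD0 and 189.7, 184 and 194 CPM in MEFD5min (log2 fold change 0.91 ± 0.07 (SE), edgeR adjusted p = 1.64e-08). Cdkn1c, the p57 inhibitor gene, was called higher at 2.404 and Cdkn2a at 1.28. The D-type cyclin gene Ccnd3, which is not a brake, was called higher as well (1.01). On the other side, Ccnd1 had a log2 fold change of -0.46 and its partner kinase gene Cdk4 of -0.58, both called lower, and the p53-induced inhibitor gene Cdkn1a did not pass (-0.23 ± 0.10, SE). Without MEFD5min replicate 3, 5 genes of this list were lower instead of 3, among them Cdkn1a at -0.38. Cdkn1a was also called lower without a filter (-0.26) and under a block for the replicate number (-0.23).

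Of 16 tested p53 target genes, 7 were lower and 3 higher. The median of the list relative to the MEFD0 mean was -0.55, 0.07 and -0.27 in MEFD5min replicates 1, 3 and 4, so these samples differed among themselves. Without replicate 3, the highest, 10 genes were lower and 3 higher. The lower ones included Ccng1, a cyclin-like p53 target, at 723, 672 and 790.3 CPM in MEFD0 and 309, 387 and 327 CPM in MEFD5min (log2 fold change -1.09 ± 0.15 (SE), edgeR adjusted p = 1.35e-05), the apoptosis effector gene Bax (-0.76), Zmat3 (-0.86) and Aen (-0.77). The 3 higher ones were Btg2 (0.74), Bbc3 (0.44) and Pmaip1 (0.82), the last of which lost its call without MEFD0 replicate 3, at 0.69. Genes linked to FOXO factors and growth factor withdrawal, with Foxo1 and Foxo3 in the list, mostly moved the other way. Of 13, 9 were higher and 3 lower, with a median of 0.66 and a lowest log2 fold change of -0.68. Txnip, an inhibitor of glucose uptake, was at 21.3, 24.7 and 22.7 CPM in MEFD0 and 272, 249.9 and 295 CPM in MEFD5min (log2 fold change 3.57 ± 0.09 (SE), edgeR adjusted p = 8.50e-14), below its day 3 level of 445, 429 and 462 CPM. Ccng2 (1.37), Pik3ip1 (1.31) and Sesn3 (0.97), which restrain growth signalling, were also higher.

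The interferon response was the largest shared change among the lists described. All 34 members were called higher, with a median log2 fold change of 5.62 and a range of 0.39 to 10.41. At day 3 the median was 6.84, and 30 of the 34 were lower at day 5 than at day 3, so most members lay between their day 3 and day 0 levels. MEFD5min replicate 3 stood apart in this group. The list median above the MEFD0 mean was 4.17 in that sample and 5.74 and 5.63 in replicates 1 and 4, still far above the MEFD0 samples, which lay between -0.05 and 0.11. Without it, 34 genes were again called higher, and with each other library left out 33 or 34 were.

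The promoters of these genes are shown because most of those found hold the letters that the STAT and IRF complex reads, the interferon-stimulated response element. In the same RefSeq windows, 24 of the 34 genes had at least 1 promoter. The element was searched on both strands as GAAA, any 2 bases and GAAA. It was present in 17 of their 28 promoters (60.7%), in 4 of 15 promoters of the MHC class I pathway (26.7%) and in 3.44% of all 32851 promoters. The 200 bases before the start site of 4 genes are printed 5′ to 3′ along the gene, with the matches in capitals. They are the antiviral effector genes Isg15 (minus strand, chr4:156200819-156201018), Ifit1 (plus strand, chr19:34640689-34640888) and Rsad2 (minus strand, chr12:26456453-26456652), and the GTPase gene Gbp3 (plus strand, chr3:142559844-142560043).
Isg15: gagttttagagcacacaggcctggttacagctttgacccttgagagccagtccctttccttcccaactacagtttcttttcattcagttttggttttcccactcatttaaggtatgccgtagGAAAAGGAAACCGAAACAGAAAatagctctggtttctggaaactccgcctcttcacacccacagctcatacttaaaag
Ifit1: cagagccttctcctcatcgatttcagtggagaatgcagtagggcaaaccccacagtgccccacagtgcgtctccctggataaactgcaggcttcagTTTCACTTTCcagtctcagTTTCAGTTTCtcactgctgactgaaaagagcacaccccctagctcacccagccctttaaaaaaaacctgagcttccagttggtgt
Rsad2: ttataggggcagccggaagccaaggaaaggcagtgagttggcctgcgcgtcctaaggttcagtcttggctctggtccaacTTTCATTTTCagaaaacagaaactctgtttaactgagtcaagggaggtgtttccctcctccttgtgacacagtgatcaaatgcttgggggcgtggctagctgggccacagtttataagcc
Gbp3: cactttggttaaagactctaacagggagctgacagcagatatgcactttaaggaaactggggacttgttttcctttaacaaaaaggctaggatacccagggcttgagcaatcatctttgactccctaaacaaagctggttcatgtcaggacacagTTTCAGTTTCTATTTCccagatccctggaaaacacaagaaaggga

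In Isg15 the matches began 78, 72 and 66 bases before the start and overlapped each other, in Ifit1 they began 104 and 85 bases before it, in Rsad2 120, and in Gbp3 45 and 39.

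Among the effectors, Isg15, a ubiquitin-like protein that is attached to viral and host proteins, was at 0.686, 0.742 and 1.06 CPM in MEFD0 and 107, 35.8 and 125 CPM in MEFD5min (log2 fold change 6.74 ± 0.48 (SE), edgeR adjusted p = 1.35e-09). Ifit1, which binds foreign RNA caps, was at 12.5, 12.6 and 13.4 CPM in MEFD0 and 220.0, 87.0 and 234 CPM in MEFD5min (log2 fold change 3.81 ± 0.26 (SE), edgeR adjusted p = 9.88e-09). Rsad2, which makes a chain-terminating nucleotide, was at 0.137, 0.159 and 0.140 CPM in MEFD0 and 30.2, 10.5 and 27.8 CPM in MEFD5min (log2 fold change 7.26 ± 0.74 (SE), edgeR adjusted p = 6.95e-10). The groups did not overlap in any of the 3 genes, and MEFD5min replicate 3 was the lowest day 5 sample in each. The synthetase gene Oas2, which makes the messenger that activates RNase L, was at the floor at day 0 and at 58.7, 22.4 and 52.9 CPM at day 5, at least 503-fold higher. Oas3 was at least 180.0-fold higher, the nucleic acid sensor gene Zbp1 at least 49.9-fold and the GTPase gene Mx1 at least 33.8-fold, each against a MEFD0 level at the floor. Bst2, the tetherin that holds budding virus on the cell, was at 3.91, 3.90 and 4.52 CPM in MEFD0 and 419, 199 and 430.2 CPM in MEFD5min (log2 fold change 6.41 ± 0.23 (SE), edgeR adjusted p = 8.01e-12), and Usp18, the negative regulator of the receptor, had a log2 fold change of 8.01. The IRGs and GBPs, GTPases that attack parasite vacuoles, were higher as well, with Iigp1 at 7.45, Gbp3 at 5.80, Igtp at 4.98 and Irgm1 at 2.98. Gbp3 was at 1.34, 0.742 and 1.73 CPM in MEFD0 and 93.0, 30.5 and 87.1 CPM in MEFD5min.

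The fold changes of the signalling genes were mostly below the median of the list. Irf9 had a log2 fold change of 2.75 and Stat2 of 2.07, while Irf7, which amplifies the response, had one of 6.30. The RNA sensor genes Ifih1 (3.88), Ddx58 (3.63) and Dhx58 (4.19) lay between these. Ifit2 changed least, at 75.4, 73.0 and 72.1 CPM in MEFD0 and 110.1, 72.0 and 107 CPM in MEFD5min (log2 fold change 0.39 ± 0.13 (SE), edgeR adjusted p = 0.0212), and its groups overlapped. It lost its call without MEFD0 replicate 3 or 4 (0.39 and 0.38) and without MEFD5min replicate 1 or 4 (0.28 each). Ifit3, Ifit3b and Oas1a share much of their exon sequence with near-identical relatives, so their separate levels are uncertain.

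The MHC class I pathway, which shows peptides of the cell interior to T cells, was higher as a whole, 15 of 15, with a median of 1.47 against 2.69 at day 3. With each library left out in turn, 13 to 15 of these genes were called higher, 13 without MEFD5min replicate 1 or MEFD5min replicate 4. The heavy chain gene H2-K1 was at 40.8, 50.9 and 45.7 CPM in MEFD0 and 423, 355 and 461 CPM in MEFD5min (log2 fold change 3.17 ± 0.11 (SE), edgeR adjusted p = 2.57e-12). The light chain gene B2m was at 1081, 1121 and 1179.7 CPM in MEFD0 and 2835, 2573 and 3453 CPM in MEFD5min (log2 fold change 1.39 ± 0.13 (SE), edgeR adjusted p = 2.37e-07). Neither gene's groups overlapped. Immunoproteasome subunits, which cut the peptides, had some of the largest log2 fold changes, with Psmb8 at 4.09 and Psmb9 at 3.71 but Psmb10 at 0.45 (not called without MEFD0 replicate 1 or 3 or MEFD5min replicate 1, at 0.36, 0.38 and 0.36), and the peptide transporter genes Tap1 and Tap2 had 2.51 and 1.47. Nlrc5, the transactivator of class I genes, was at 55.2, 55.5 and 50.1 CPM in MEFD0 and 135, 118 and 133 CPM in MEFD5min, and the 3 MEFD3min samples were at 62.4, 73.3 and 48.0 CPM, so that this member rose after day 3 (log2 fold change day 5 minus day 3 1.07, edgeR adjusted p = 1.58e-06).

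Chemokines and cytokines were higher in 15 of 19 tested members and lower in 3, and some of them rose mostly after day 3. Cxcl10, a T cell attractant induced by interferon, was at 1.44, 1.48 and 1.17 CPM in MEFD0 and 33.6, 17.0 and 41.1 CPM in MEFD5min (log2 fold change 4.49 ± 0.29 (SE), edgeR adjusted p = 1.04e-09). Ccl2, which draws monocytes, was at 26.7, 30.4 and 33.2 CPM in MEFD0 and 223, 121 and 263 CPM in MEFD5min (log2 fold change 2.75 ± 0.21 (SE), edgeR adjusted p = 2.87e-08). Both were already high at day 3, with means of 37.1 and 279 CPM. Lif, a cytokine of the interleukin-6 family, was instead at 4.29, 4.18 and 3.67 CPM in MEFD3min and at 2.13, 3.05 and 2.79 CPM in MEFD0 and 23.7, 24.5 and 24.5 CPM in MEFD5min (log2 fold change 3.18 ± 0.17 (SE), edgeR adjusted p = 1.76e-10), and Tnfaip3, a brake on NF-kB, had a mean of 2.87 CPM at day 0, 2.77 at day 3 and 14.99 at day 5. Lif and Tnfaip3 were called higher at day 5 than at day 3 (edgeR adjusted p = 1.88e-09 and 2.72e-07). The 3 lower members were Ccl9 (-1.63), the interleukin-33 receptor gene Il1rl1 (-0.90) and Csf1 (-0.48), which encodes the macrophage growth factor. The ligand gene Il33 itself was higher (1.68).

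Complement genes were higher in 8 of 9 tested members, and none was lower. C1s1, a protease of the classical pathway, was at 8.75, 8.43 and 6.78 CPM in MEFD0 and 122, 111 and 136 CPM in MEFD5min (log2 fold change 3.94 ± 0.10 (SE), edgeR adjusted p = 1.66e-13). Clu, which blocks the final complement complex, was at 17.4, 20.3 and 18.6 CPM in MEFD0 and 552, 414 and 573 CPM in MEFD5min (log2 fold change 4.77 ± 0.11 (SE), edgeR adjusted p = 8.50e-14), above its MEFD3min level of 249, 283 and 285 CPM. C3 and C4b were at the floor at day 0 and at means of 1.45 and 0.171 CPM at day 5. C2 did not pass (-0.10 ± 0.57, SE), and C1ra shares much of its exon sequence with a close relative.

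Genes of collagens, of other matrix proteins and of matrix proteases were mostly higher. Of 20 tested collagen genes, 17 were higher and 1 lower, with a median of 0.85 against 1.90 at day 3, and 15 of the 20 were lower at day 5 than at day 3. Col3a1, the fibrillar collagen of loose and healing tissue, was at 207, 247 and 192 CPM in MEFD0 and 2616, 1769 and 2336 CPM in MEFD5min (log2 fold change 3.38 ± 0.15 (SE), edgeR adjusted p = 4.36e-11). Col1a1 was at 412, 540.2 and 328 CPM in MEFD0 and 1589, 1177 and 1102 CPM in MEFD5min (log2 fold change 1.596 ± 0.26 (SE), edgeR adjusted p = 0.000125). The MEFD5min samples lay above all MEFD0 samples in both genes, and the day 3 means were higher still, at 8681 and 2914 CPM. Col12a1, a collagen that lies on the surface of fibrils, went on rising instead, from 24.7, 24.9 and 14.99 CPM in MEFD0 to 65.4, 102 and 62.7 in MEFD3min and 171, 154 and 157 in MEFD5min (log2 fold change day 5 minus day 0 2.90 ± 0.19, SE). Col14a1, another surface collagen, had a log2 fold change of 3.88. The basement membrane chains Col4a1 and Col4a2 were higher by less (0.63 and 0.89), Col6a3 did not pass (-0.03 ± 0.19, SE), and Col7a1, the anchoring fibril collagen of skin, was the 1 lower member (-1.17).

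Among 28 tested matrix glycoproteins and proteoglycans, 18 were higher and 2 lower. Decorin (Dcn), a small proteoglycan that binds collagen fibrils, was at 13.8, 14.5 and 17.6 CPM in MEFD0 and 1689.8, 1090.0 and 2023 CPM in MEFD5min (log2 fold change 6.71 ± 0.19 (SE), edgeR adjusted p = 2.23e-12). Lumican (Lum), of the same family, was at 0.137, 1.03 and 1.14 CPM in MEFD0 and 275, 136 and 311 CPM in MEFD5min (log2 fold change 8.21 ± 0.42 (SE), edgeR adjusted p = 3.56e-11). Periostin (Postn), a matrix protein of growing and repairing connective tissue, was at 9.43, 12.6 and 9.83 CPM in MEFD0 and 587, 315 and 679 CPM in MEFD5min (log2 fold change 5.63 ± 0.21 (SE), edgeR adjusted p = 1.16e-11). None of the 3 genes had overlapping groups, and all 3 had been near or below 20 CPM at day 0. Elastin (Eln, minus strand, chr5:134702593-134747323), the core of elastic fibres, had 1, 0 and 0 counts at day 0 and was at 32.1, 14.7 and 29.0 CPM at day 5, at least 284-fold higher. Lysyl oxidase (Lox), which crosslinks collagen and elastin, was at 37.5, 36.0 and 27.8 CPM in MEFD0 and 149, 199 and 156 CPM in MEFD5min (log2 fold change 2.32 ± 0.12 (SE), edgeR adjusted p = 2.49e-10), and most of that rise came after day 3 (43.3, 50.3 and 53.6 CPM in MEFD3min). The secreted collagen regulator gene Cthrc1 had a log2 fold change of 4.05, Mgp, an inhibitor of calcification, of 3.28 and Aspn of 3.50. Fibronectin (Fn1) did not pass, at 2290.1, 2778 and 1643 CPM in MEFD0 and 2470.2, 2339.9 and 1983 CPM in MEFD5min with an interval of -0.47 to 0.51, although the MEFD3min mean was 5231 CPM. The lower members were versican (Vcan, -0.64) and Prelp. Prelp was at the floor in both groups, so its call is not read as a decrease.

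Of 23 matrix proteases and their inhibitors, 18 were higher and 2 lower. Stromelysin 1 (Mmp3) was at 83.5, 87.1 and 102 CPM in MEFD0 and 1365, 1143 and 1462 CPM in MEFD5min (log2 fold change 3.86 ± 0.14 (SE), edgeR adjusted p = 8.19e-12). Plau, the urokinase plasminogen activator, was at 129.7, 156 and 144 CPM in MEFD0 and 2293, 1493 and 2276 CPM in MEFD5min (log2 fold change 3.82 ± 0.13 (SE), edgeR adjusted p = 4.30e-12). The 3 MEFD5min samples lay above all MEFD0 samples in both. Mmp10, a close relative of Mmp3, rose mostly after day 3, from means of 1.65 CPM at day 0 and 2.38 at day 3 to 36.9, 33.0 and 43.3 CPM in MEFD5min (log2 fold change 4.52 ± 0.18 (SE), edgeR adjusted p = 8.26e-12). The elastase gene Mmp12 had a log2 fold change of 7.25 and the collagenase gene Mmp13 of 3.68, and Mmp9 was at the floor at day 0 and at least 39.6-fold higher. Timp2 (-0.81) and Adamts5 (-0.90) were lower, and the membrane protease gene Mmp14 did not pass (0.16 ± 0.13, SE).

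**Figure D3:**
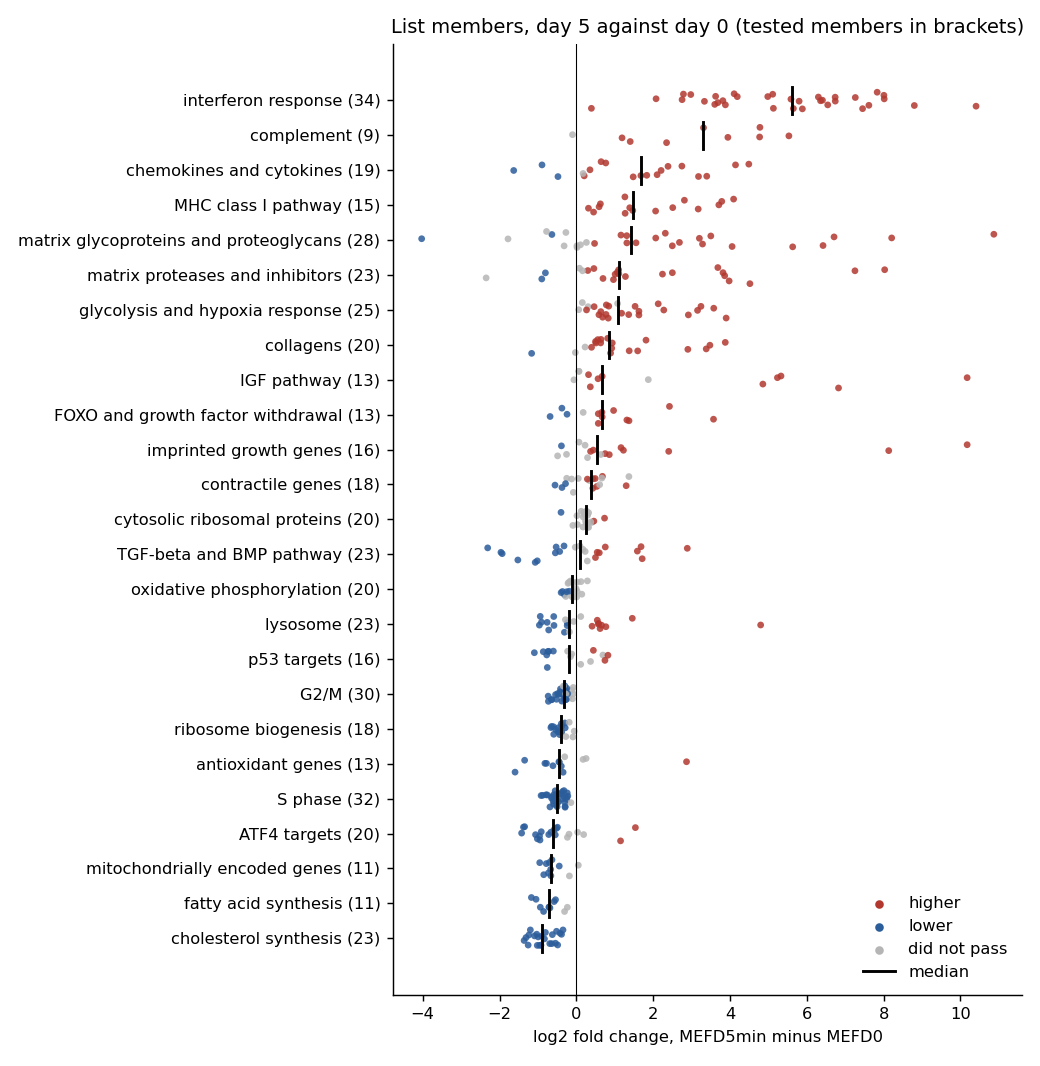
Log2 fold change MEFD5min minus MEFD0 (x axis) of each tested member of 25 gene lists (rows, with the number tested in brackets), red where called higher, blue where called lower and grey where not, with a black bar at the list median. The medians run from 5.62 in the interferon response to -0.90 in cholesterol synthesis, and the collagen and MHC class I members sit almost entirely to the right of 0.

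The growth factor Igf2 (minus strand, chr7:142650766-142666816), an embryonic growth hormone that acts through the IGF1 receptor, was at 0.240, 0.265 and 1.84 CPM in MEFD0 and 1098, 710.2 and 990.2 CPM in MEFD5min (log2 fold change 10.18 ± 0.46 (SE), edgeR adjusted p = 1.99e-11). The day 5 samples were far above all day 0 samples, and below the MEFD3min samples, at 2300.2, 2621 and 2388 CPM. In the annotation, 62.8% of the exon bases of Igf2 overlap another gene on the same strand. The noncoding RNA H19, its imprinted neighbour, was at 0.960, 1.48 and 3.52 CPM in MEFD0 and 638, 415 and 653 CPM in MEFD5min (log2 fold change 8.13 ± 0.29 (SE), edgeR adjusted p = 7.27e-12). Of 16 tested imprinted growth genes, 9 were higher and 1 lower (2 lower without MEFD0 replicate 4). Besides this pair and Cdkn1c, they included Dlk1 (1.16), Meg3 (0.86), Plagl1 (0.75), a transcription factor of imprinted genes, and Sgce (1.23). Grb10, an adaptor that damps insulin receptor signalling, was the lower one (-0.39), and Igf2r, which clears IGF2 from the surface, did not pass (0.07 ± 0.17, SE).

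Of 13 genes of the IGF pathway 9 were higher and none was lower. Igf1 was at 0.995, 1.25 and 1.28 CPM in MEFD0 and 51.9, 29.1 and 52.8 CPM in MEFD5min (log2 fold change 5.23 ± 0.24 (SE), edgeR adjusted p = 9.64e-12). Igfbp3, which carries IGFs in the circulation, was at 5.90, 4.43 and 5.50 CPM in MEFD0 and 637, 503 and 649 CPM in MEFD5min (log2 fold change 6.83 ± 0.15 (SE), edgeR adjusted p = 8.50e-14). Igfbp5, a binding protein held in the matrix, was at 47.0, 48.7 and 49.1 CPM in MEFD0 and 1858, 1057 and 1276 CPM in MEFD5min (log2 fold change 4.86 ± 0.21 (SE), edgeR adjusted p = 7.24e-11), well under its MEFD3min level of 8729.8, 12628 and 7664 CPM. The MEFD5min samples lay above all MEFD0 samples in the 3 genes. Igfbp4 had a log2 fold change of 5.33. The signalling receptor gene Igf1r did not pass, with an interval of -0.43 to 0.30.

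Glycolysis and the hypoxia response set day 5 apart from day 3. Of 25 genes, 21 were higher than at day 0 and none lower, with a median of 1.07, while at day 3 the median was -0.13, with 7 genes higher and 12 lower than at day 0. Between the days, 22 were higher in MEFD5min than in MEFD3min and none lower. MEFD5min replicate 3 was not low here. The list median above the MEFD0 mean was 0.97, 1.11 and 1.26 in replicates 1, 3 and 4.

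Promoters of this list are printed because the letters ACGTG, the core that hypoxia-inducible factors bind, were frequent in them. That motif was searched on both strands after the changes were known. It was present in 18 of 33 promoters of 23 genes (54.5%), against 19.6% of all promoters. In the other lists searched its share ran from 7.14% (interferon response) to 33.3% (G2/M). It is part of the E-box CACGTG, which other factors bind and which was present in 3 of the 33 (9.09%) and in 7.15% of all promoters. The mitophagy gene Bnip3 (minus strand, chr7:138909507-138909706) and the lactate dehydrogenase gene Ldha (plus strand, chr7:46845604-46845803) are shown over 200 bases before the start. Both are among the 3 promoters that hold the E-box, so they do not represent the other 15 with ACGTG. They are printed 5′ to 3′, with ACGTG or its complement in capitals.
Bnip3: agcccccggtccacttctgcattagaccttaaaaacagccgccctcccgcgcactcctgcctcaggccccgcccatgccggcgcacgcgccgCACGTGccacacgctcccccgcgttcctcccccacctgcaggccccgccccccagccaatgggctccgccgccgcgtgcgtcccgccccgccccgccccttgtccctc
Ldha: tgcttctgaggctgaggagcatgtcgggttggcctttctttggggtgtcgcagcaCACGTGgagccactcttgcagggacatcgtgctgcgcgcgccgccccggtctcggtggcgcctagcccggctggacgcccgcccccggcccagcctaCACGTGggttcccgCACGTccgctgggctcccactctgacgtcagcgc

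In Bnip3 the matches on the opposite strands overlapped and began 108 and 107 bases before the start. In Ldha there were 5 matches, the nearest beginning 34 bases before the start.

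Bnip3 was at 44.8, 48.8 and 51.8 CPM in MEFD0 and 309.7, 403 and 386 CPM in MEFD5min (log2 fold change 2.92 ± 0.15 (SE), edgeR adjusted p = 2.42e-10), with 46.8, 41.8 and 67.1 CPM in MEFD3min. Ero1l, an oxidase that forms disulfide bonds in the endoplasmic reticulum, was at 124, 126 and 127 CPM in MEFD0 and 842, 1545 and 1187 CPM in MEFD5min (log2 fold change 3.24 ± 0.14 (SE), edgeR adjusted p = 4.64e-11), with 136, 132 and 142 CPM in MEFD3min. Day 3 was thus close to day 0 in both genes, and all 3 day 5 samples were several times higher. Pdk1, which keeps pyruvate out of the mitochondria, was at 27.0, 27.5 and 29.6 CPM in MEFD0 and 138, 128 and 141 CPM in MEFD5min (log2 fold change 2.28 ± 0.09 (SE), edgeR adjusted p = 5.51e-12). Vegfa, the growth factor of blood vessels, was at 53.9, 59.6 and 48.5 CPM in MEFD0 and 139, 174 and 155 CPM in MEFD5min (log2 fold change 1.53 ± 0.11 (SE), edgeR adjusted p = 8.59e-09). Ankrd37 (3.90), the vasodilator peptide gene Adm (3.58) and Egln3 (3.15), an oxygen-dependent hydroxylase that marks hypoxia-inducible factors for decay, were among the largest changes, and Adm and Egln3 had risen in part by day 3 (2.75 and 2.87). Most enzymes of glycolysis had smaller fold changes. Ldha was at 691, 727 and 798 CPM in MEFD0 and 1228, 1247 and 1328 CPM in MEFD5min (log2 fold change 0.78 ± 0.11 (SE), edgeR adjusted p = 3.09e-05), the isomerase gene Gpi1 had a log2 fold change of 1.63, the aldolase gene Aldoa of 0.77 and Gapdh of 0.68. The glucose transporter gene Slc2a1 was called higher (0.84), Pkm had an interval of -0.13 to 0.26, and the kinase gene Pgk1 (1.18) shares much of its exon sequence with other loci.

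Genes of lipid synthesis were lower at day 5. All 23 tested cholesterol synthesis genes were called lower, with a median of -0.90 against -0.78 at day 3, and 6 of them were lower still than at day 3 while 1 was higher. Lanosterol synthase (Lss), which closes the sterol rings, was at 140.0, 151 and 125 CPM in MEFD0 and 62.5, 54.6 and 50.5 CPM in MEFD5min (log2 fold change -1.31 ± 0.10 (SE), edgeR adjusted p = 2.73e-08). Mevalonate kinase (Mvk) was at 61.6, 59.2 and 64.0 CPM in MEFD0 and 24.4, 25.6 and 22.1 CPM in MEFD5min (log2 fold change -1.36 ± 0.10 (SE), edgeR adjusted p = 8.24e-09). The groups did not overlap in either. Mvd (-1.26) and the sterol sensor partner Insig1 (-1.09) were lower as well, as was Srebf2 (-0.42), which encodes the controlling factor. Srebf2 lost its call without MEFD0 replicate 1 or 3 or MEFD5min replicate 4, at -0.41, -0.36 and -0.37. CCAAT, a common promoter element, was present in 16 of the 19 promoters found for this list (84.2%) and in 37.4% of all promoters. The sterol response element, searched as TCACNCCAC, was present in 1 of the 19 (5.26%) and in 1.24% of all.

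Of 11 fatty acid synthesis genes, 9 were lower and none higher. Fatty acid synthase (Fasn) was at 688, 845 and 570.4 CPM in MEFD0 and 313, 366 and 255.5 CPM in MEFD5min (log2 fold change -1.17 ± 0.19 (SE), edgeR adjusted p = 9.10e-05), and Elovl6 (-1.05), Acaca (-0.94) and the desaturase gene Scd2 (-0.85) were also lower. Srebf1 was at the border of the test (-0.31 ± 0.13, SE). It did not pass, and it was called lower without MEFD0 replicate 4 (-0.39), in a fit of the 6 samples alone (-0.29), with DESeq2's size factors (-0.32), without a filter (-0.34) and under the replicate block (-0.30).

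Genes of amino acid supply and redox defence were mostly lower too. Of 20 ATF4 targets, 14 were lower and 2 higher. The lower ones held the enzymes of serine synthesis. Psat1 was at 943, 943 and 1013 CPM in MEFD0 and 488, 469 and 476 CPM in MEFD5min (log2 fold change -1.02 ± 0.08 (SE), edgeR adjusted p = 1.58e-08), and Psph (-1.06) and Phgdh (-0.96) moved with it, though Phgdh shares part of its sequence with other loci. Asns (-0.66), which makes asparagine, and the cystine carrier gene Slc7a11 (-1.35) were lower. The 2 higher members were Ddit3 (1.54), a transcription factor of the stress response, and Nupr1 (1.15), while Atf4 itself did not pass (-0.19 ± 0.10, SE) and was called lower, at -0.21, with scaling by total counts alone. Of 13 tested antioxidant genes, 9 were lower and 1 higher. Nqo1, a quinone reductase controlled by NRF2, was at 20.3, 22.6 and 23.7 CPM in MEFD0 and 6.95, 7.71 and 7.38 CPM in MEFD5min (log2 fold change -1.597 ± 0.14 (SE), edgeR adjusted p = 1.44e-07), and Gclc (-0.82) and Txnrd1 (-0.61) were lower. The higher member was the extracellular dismutase gene Sod3 (2.87), and 2 were higher without MEFD5min replicate 1.

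Genes of ribosome production were lower, whereas most ribosomal protein genes did not pass. Of 18 ribosome biogenesis genes, 14 were lower and none higher, with a median of -0.41 against -0.90 at day 3. The methylation guide protein gene Nop58 was at 276, 269 and 287 CPM in MEFD0 and 189, 208 and 202 CPM in MEFD5min (log2 fold change -0.48 ± 0.11 (SE), edgeR adjusted p = 0.00244), and Wdr12 (-0.66) and Heatr1 (-0.64) were the most decreased. Of 20 cytosolic ribosomal protein genes, 17 did not pass, 2 were higher and 1 was lower, at a median of 0.25, and a fit of the 6 samples alone called 8 higher. The count of 2 was 1 without any one of MEFD0 replicates 1 and 3 or MEFD5min replicates 1 and 4, and 5 without MEFD0 replicate 4. The median was 0.15 without MEFD5min replicate 4 and 0.35 without MEFD0 replicate 4. Of 20 nuclear-encoded oxidative phosphorylation genes, 15 did not pass, 5 were lower and none was higher. The share called lower was near the 21.9% of all genes. The count of 5 was 2 without MEFD0 replicate 4 or without MEFD5min replicate 1, and 3 without MEFD0 replicate 3 or MEFD5min replicate 3. Of 11 mitochondrially encoded genes, 9 were lower, with a median of -0.67 against 0.04 at day 3. Among these, mt-Co2 lost its call when any single MEFD0 replicate or MEFD5min replicate 1 or 3 was left out (-0.39 to -0.48). It also lost it among genes averaging 1 log2 CPM or more (-0.42). The call of mt-Nd3 was lost without MEFD0 replicate 3 or 4 or MEFD5min replicate 1 (-0.88, -0.8 and -0.89). The complex I gene mt-Nd1 was at 4076, 3886 and 4599 CPM in MEFD0 and 2242, 2185 and 2542 CPM in MEFD5min (log2 fold change -0.85 ± 0.19 (SE), edgeR adjusted p = 0.00149), and mt-Co1 did not pass (0.05 ± 0.18, SE). The levels of 6 of the 11 are uncertain, since mt-Co2, mt-Co3, mt-Nd3 and mt-Atp6 share nearly all of their sequence with other annotated genes, mt-Nd4 62.2% and mt-Co1 51.1%. Lysosomal genes were split, 9 higher and 10 lower of 23. The cathepsin gene Ctsl was at 1857, 2039.6 and 2029 CPM in MEFD0 and 5516, 4466 and 6274 CPM in MEFD5min (log2 fold change 1.46 ± 0.13 (SE), edgeR adjusted p = 1.07e-07), and the membrane protein gene Lamp1 was at 1057, 1163 and 1059.9 CPM in MEFD0 and 561, 582 and 539.5 CPM in MEFD5min (log2 fold change -0.96 ± 0.08 (SE), edgeR adjusted p = 6.88e-08).

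Signalling pathways held members that moved in both directions. Of 23 TGF-beta and BMP genes, 8 were higher and 10 lower. The ligand gene Tgfb2 was at 6.35, 6.10 and 6.34 CPM in MEFD0 and 55.6, 39.0 and 44.3 CPM in MEFD5min (log2 fold change 2.89 ± 0.12 (SE), edgeR adjusted p = 1.02e-11), and the activin subunit gene Inhba had a log2 fold change of 1.68. The BMP antagonist gene Grem1 was at 369.9, 383 and 360.1 CPM in MEFD0 and 82.5, 119.8 and 83.1 CPM in MEFD5min (log2 fold change -1.96 ± 0.13 (SE), edgeR adjusted p = 4.64e-09). Each of the 3 BMP-induced Id genes was lower (Id1 -1.02, Id2 -0.55, Id3 -0.53), as were Smad6 (-1.93) and Bmper (-2.31). Of 20 FGF and PDGF genes, 11 were higher and 6 lower. Spry1, a feedback inhibitor of the receptor kinases, was at 2.95, 3.68 and 2.62 CPM in MEFD0 and 52.4, 25.7 and 38.8 CPM in MEFD5min (log2 fold change 3.66 ± 0.24 (SE), edgeR adjusted p = 2.78e-09), and Spry4 (2.23) and Dusp6 (0.92) were higher, while the ligand genes Fgf10 (-1.39) and Fgf7 (-0.98) and the receptor gene Fgfr2 (-1.03) were lower. Pdgfb had no count at day 0 and was at 2.57, 0.973 and 1.65 CPM at day 5, at least 19.5-fold higher. The PDGF receptor genes went opposite ways, Pdgfra higher (1.18) and Pdgfrb lower (-0.87).

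Of 21 tested Wnt pathway genes, 9 were higher, 2 lower and 10 did not pass. The share of this list called in either direction was near the 46.4% of all genes. The ligand gene Wnt5a had a log2 fold change of 0.51 ± 0.08 (SE), the receptor gene Fzd8 of 1.26, and Wnt10b, a ligand that holds back fat formation, of -1.59. Wnt11 was at the floor at day 0 and at 0.391, 1.83 and 0.595 CPM at day 5. The other lower gene, Fzd1 (-0.37), was no longer called without MEFD0 replicate 1 or 3 (-0.33 each) or MEFD5min replicate 1 or 4 (-0.39 and -0.30), when 1 gene was lower. Of 8 tested Notch genes, 4 were higher and 1 lower. Notch3 was at 1.99, 1.48 and 0.447 CPM in MEFD0 and 8.49, 8.10 and 6.79 CPM in MEFD5min (log2 fold change 2.60 ± 0.38 (SE), edgeR adjusted p = 2.49e-05), the target gene Hes1 had a log2 fold change of 2.49 and the ligand gene Jag1 of 1.76.

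Some genes of the contractile and stretch-responsive state were higher at day 5, and several of these had been lower at day 3. In each list of this paragraph, the share called in either direction was near the 46.4% of all genes. Of 18 tested contractile genes, 7 were higher and 3 lower. Smooth muscle actin (Acta2) was at 297, 322 and 338 CPM in MEFD0 and 441, 485 and 458 CPM in MEFD5min and at 81.4, 77.9 and 106 CPM in MEFD3min (log2 fold change 0.53 ± 0.11 (SE), edgeR adjusted p = 0.00106). Tagln, an actin-binding protein of smooth muscle, had a log2 fold change of 0.68, with most of its exon bases overlapped on the opposite strand, and Tpm1 of 0.49, while filamin A (Flna) was lower (-0.56). Of 13 YAP and TEAD targets, 5 were higher and 2 lower. Ccn2, a matricellular growth factor, was at 81.8, 107 and 70.3 CPM in MEFD0 and 199, 232 and 202 CPM in MEFD5min and at 20.96, 22.3 and 32.8 CPM in MEFD3min (log2 fold change 1.29 ± 0.21 (SE), edgeR adjusted p = 9.84e-05). Ankrd1 (1.07) and Ccn1 (0.89) were higher too, and Yap1 itself did not pass (-0.11 ± 0.09, SE). Of the 2 lower genes, Axl (-0.47) and Ajuba (-0.37), Ajuba lost its call without MEFD0 replicate 1 or 3 (-0.33 and -0.31) or MEFD5min replicate 1 or 4 (-0.33 and -0.31). Of 18 immediate early genes, 10 did not pass, 5 were higher and 3 lower. Ier3 (2.30), Fos (2.05), Fosb (1.69), Junb (1.2004) and Egr1 (0.54) were higher, Klf4 (-1.12), Fosl1 (-0.70) and Klf6 (-0.36) were lower, and Egr1 lost its call without MEFD0 replicate 1 or MEFD5min replicate 4 (0.35 and 0.47). Myc had an interval of -0.34 to 0.08.

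Among genes of positional and fate identity, 21 of 39 Hox genes could be tested, and 7 were higher and 3 lower, a share called that is close to the 46.4% of all genes. Hoxa5 was at 29.0, 32.3 and 30.6 CPM in MEFD0 and 66.9, 69.2 and 69.6 CPM in MEFD5min (log2 fold change 1.16 ± 0.07 (SE), edgeR adjusted p = 1.40e-09), Hoxb9 had a log2 fold change of -0.25 and Hoxc6 did not pass (0.03 ± 0.09, SE). The 7 were 4 without MEFD0 replicate 4 or without MEFD5min replicate 1, and the 3 were 1 without MEFD5min replicate 4. Of 14 tested skeletal and limb mesenchyme factors, 4 were higher and 4 lower, again near the shares of all genes, with the bone factor Sp7 (3.32) and the tendon factor Scx (1.24) higher and Twist2 (-0.91) lower. The 4 lower genes were 1 without MEFD0 replicate 1 and 2 without MEFD0 replicate 3 or MEFD5min replicates 1 or 4. Of 15 tested preadipocyte and progenitor genes, 9 were higher and 3 lower. Ebf2 was at 15.1, 14.98 and 13.0 CPM in MEFD0 and 34.7, 23.01 and 32.6 CPM in MEFD5min (log2 fold change 1.07 ± 0.12 (SE), edgeR adjusted p = 1.78e-06) and Cebpa had a log2 fold change of 0.76, whereas Pparg, the nuclear receptor that directs fat cell formation, was lower at 17.9, 16.5 and 19.4 CPM in MEFD0 and 9.64, 10.9 and 9.52 CPM in MEFD5min (log2 fold change -0.84 ± 0.10 (SE), edgeR adjusted p = 5.22e-06), as was Ly6a (-1.47). Of 7 tested oncofetal regulators, 1 was higher, the transcription factor gene Mycn, at 0.857, 0.424 and 0.475 CPM in MEFD0 and 11.1, 7.20 and 8.81 CPM in MEFD5min (log2 fold change 3.98 ± 0.29 (SE), edgeR adjusted p = 2.90e-09), and 3 were lower, with Hmga1 at -0.51 and Hmga2 at -0.30. The level of Hmga1 is uncertain, since 55.0% of its sequence is shared with other annotated genes. Of 15 circadian clock genes, 3 were higher, 6 lower and 6 did not pass, with Bhlhe40 (1.32) higher and Per2 (-1.05) lower. The hours at which the cultures were harvested are not given in the sources used here.

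**Figure D4:**
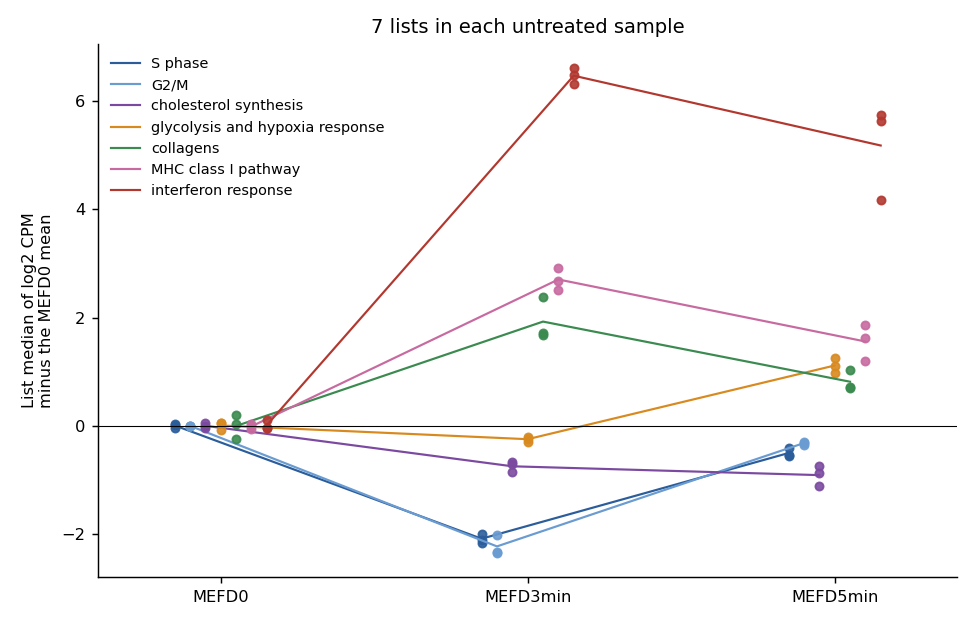
Median over the members of 7 lists of log2 CPM minus the MEFD0 mean (y axis) in each untreated sample (points) at day 0, day 3 and day 5, with lines through the group means. S phase and G2/M lie between -2.34 and -1.99 at day 3 and between -0.55 and -0.29 at day 5, the interferon response stays at 4.17 or higher from day 3, and the median of glycolysis and hypoxia response lies at -0.29 to -0.21 at day 3 and at 0.97 to 1.26 at day 5.

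The most increased and most decreased named genes among those that averaged 3 or more log2 CPM over the 15 samples and had no overlap between the groups add some single cases. Besides Eln, Oas2 and Igf2, the increases included the trypsin gene Try5, at the floor at day 0 and at 35.4, 36.1 and 44.3 CPM at day 5 (at least 435-fold higher), which shares much of its exon sequence with other loci. Tll2, a protease related to the procollagen processing enzyme, was at least 166-fold higher, and the monooxygenase gene Fmo2 at least 397-fold. Ifi44, Ifi213 and Ifi208, all interferon-induced, were among the 10, the last 2 at least 27.0-fold and 109-fold higher. Ifi213 averaged 2.395 CPM in MEFD5min, below the level required, which it met through the other samples, with a mean of 30.3 CPM in the treated cultures at day 5. Also among the 10 was the secreted protein gene Angptl7, at 0.274, 0.345 and 0.865 CPM in MEFD0 and 311, 139.8 and 338 CPM in MEFD5min (log2 fold change 9.02 ± 0.45 (SE), edgeR adjusted p = 8.26e-12). MEFD5min replicate 3 was the lowest day 5 sample in 9 of the 10 most increased genes, Try5 being the exception.

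Of the 10 most decreased, Gpnmb, a glycoprotein of lysosomes and the cell surface (plus strand, chr6:49036546-49070929), was at 726, 798 and 628 CPM in MEFD0 and 102, 140.4 and 101 CPM in MEFD5min (log2 fold change -2.65 ± 0.14 (SE), edgeR adjusted p = 2.67e-10). S100a4 was at 134, 135 and 169 CPM in MEFD0 and 14.6, 22.4 and 16.4 CPM in MEFD5min (log2 fold change -3.05 ± 0.19 (SE), edgeR adjusted p = 3.31e-09), with 51.7% of its exon bases overlapped by another gene on the same strand. Smoc2, a matrix protein that binds calcium, was at 119, 135 and 123 CPM in MEFD0 and 13.8, 14.7 and 11.3 CPM in MEFD5min (log2 fold change -3.25 ± 0.11 (SE), edgeR adjusted p = 2.46e-12). The groups were far apart in the 3 genes. Pcolce2 (-2.71), an enhancer of procollagen processing, the sulfotransferase gene Chst1 (-2.61) and AI593442 (-3.96) were the other decreases from above 30 CPM in every MEFD0 sample. Plin4, a lipid droplet protein, was at 17.97, 20.4 and 13.99 CPM in MEFD0 and 0.251, 0.234 and 0 CPM in MEFD5min (log2 fold change -6.80 ± 0.51 (SE), edgeR adjusted p = 2.20e-11). Its means in the treated cultures, 82.5 CPM at day 3 and 88.9 CPM at day 5, raised its average over the 15 samples. Cbr2 (-4.94), Agt (-3.09) and Mgst1 (-2.62) had means under 3 CPM in both untreated groups, and they met the level required only through the treated samples of the study, where their day 5 means were 42.7, 132 and 230.0 CPM.

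**Figure D5:**
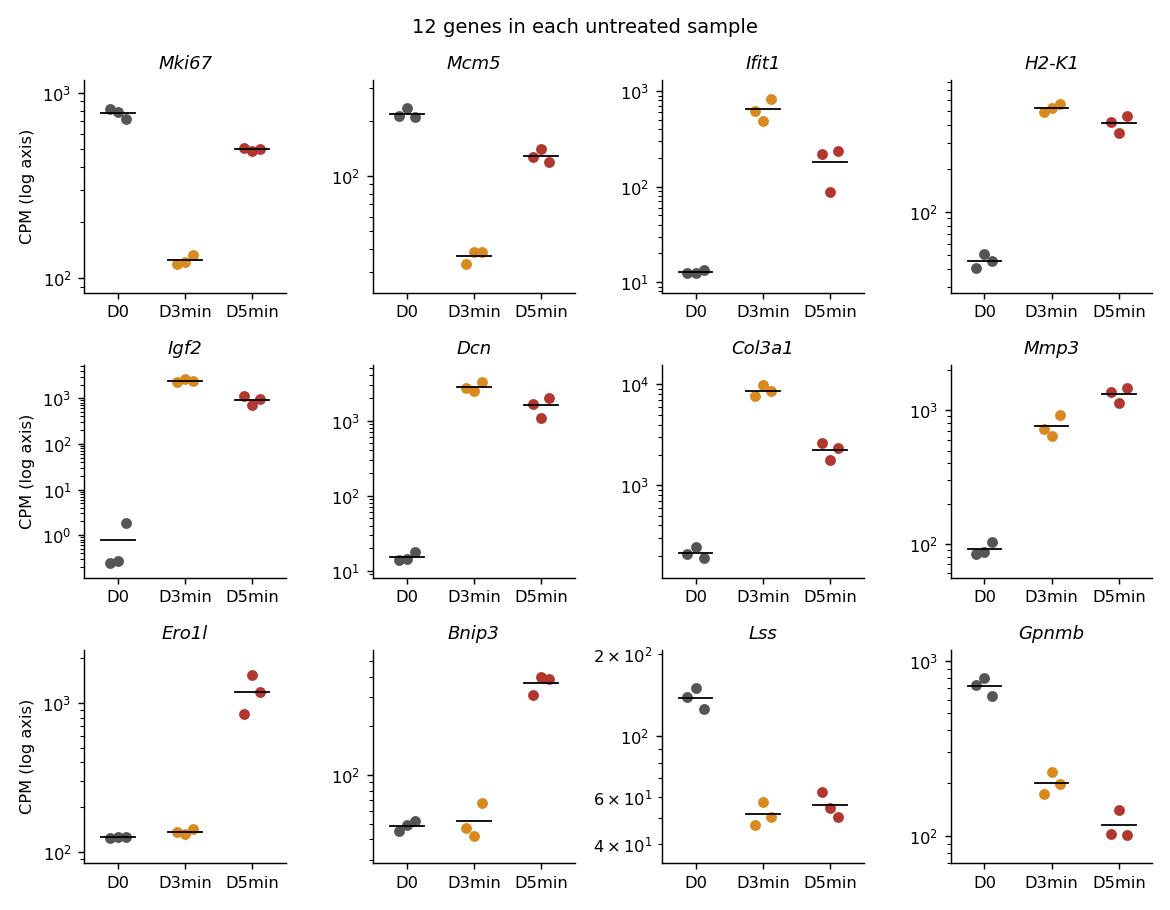
CPM on a log axis of 12 genes in each untreated sample at day 0 (D0), day 3 (D3min) and day 5 (D5min), with a bar at the group mean. Mki67 and Mcm5 dip at day 3 and come most of the way back, Ifit1, H2-K1, Igf2, Dcn, Col3a1 and Mmp3 stay far above day 0, Ero1l and Bnip3 are high at day 5 alone, and Lss and Gpnmb are lower at day 5 than at day 0.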

How the data were processed

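RNA-Seq of untreated MEFs was analysed from the raw counts per Ensembl gene that the authors deposited for each sample, without normalization. The submitters' processing notes name GRCm38 (mm10), TopHat2 2.1.0, HTSeq and DESeq2. The labels name a TruSeq kit that does not mark strand, and the study's methods a stranded one. The annotation release, the strand setting and the treatment of reads with several matches are not given in the sources used here. Of 46603 identifiers, 46091 had a name in GENCODE M21 (GRCm38).

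In R 4.3.3, edgeR 4.0.16 kept 15997 genes (filterByExpr on the 5 groups of the study), scaled libraries by TMM, and tested them with glmQLFit and glmQLFTest in 1 fit of all 15 samples with no covariates. Benjamini-Hochberg adjustment was made in each comparison. The alternatives were DESeq2 1.42.0, other scalings, filters, thresholds and samples, a block for the replicate number, and leaving out each library. Steps were tested on simulated counts.

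Genes named are the 10 most increased and 10 most decreased (mean log2 CPM of at least 3, groups not overlapping) and members of the lists, which were chosen with earlier results of these data known. The motifs ACGTG and CACGTG were added after the data were seen.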

Additional observations from a re-analysis of the deposited data

How the results depend on the processing

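The number of genes called between MEFD5min and MEFD0, 7421, was 7612 with DESeq2, 7617 in a fit of the 6 samples alone, 7426 with DESeq2's size factors, 7408 with scaling by total counts alone, 7574 without a filter, 6269 for genes averaging 1 log2 CPM or more, and 5451 at an adjusted p under 0.01. With each library left out in turn it was 6226 to 7119. A change of at least 2-fold, which by construction keeps fewer genes, left 2438 genes in this comparison, 4068 between MEFD3min and MEFD0 and 2150 between MEFD5min and MEFD3min, and 76.4% instead of 52.8% of the day 5 genes were then higher. Scaled by library totals only, higher genes made up 43.9% instead of 52.3% of the calls between MEFD3min and MEFD0 and 62.7% instead of 49.7% between MEFD5min and MEFD3min. The replicate number as a block gave 7970 instead of 7421 genes, 10010 instead of 9602 and 7420 instead of 6845, and the deviations of same-numbered samples from their group means correlated at 0.0445, 0.132 and 0.0764 on average. Not every pair correlated above 0.1. What the numbers share is not stated, so the main fit held no block, and whether they pair the samples was left undecided. Of the list medians, that of the circadian clock genes turned from 0.12 to -0.0234 without MEFD5min replicate 3 and -0.0172 without MEFD5min replicate 4 (highest 0.1732 without MEFD5min replicate 1), and the cause was not tested. The block, a fit of the 6 samples alone and no filter each called 8 ribosomal protein genes higher instead of 2, and no filter called 5 and the block 4 matrix glycoprotein genes lower instead of 2. The 3 samples per group, and the depth of 24030558 counts in MEFD5min replicate 3, limit the genes of low level.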
